A study of Mus musculus with 2 samples.

Results

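The formyl peptide receptor genes were followed through 2 one-colour microarrays, 1 of granulocytes and 1 of monocytes, both sorted from bone marrow. The donors were male C57BL/6 mice of the wild type in either case, and no treatment is named. All gene probes that the array files name Fpr1, Fpr-rs2 (the older symbol of Fpr2) or any other name starting with Fpr were taken, which gave 3 probes of 41174 and 2 genes of 19729 named genes. How the cells were gated, and how many mice gave each sample, is not stated in any source used here. With 1 array per cell type there is no replicate check and no test, so each difference compares these 2 samples.

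The labels were set against marker genes. Of 8 monocyte markers with a probe, 7 were at least 4-fold lower on the granulocyte array, among them Ccr2, Fn1 and F13a1, and Csf1r was 2.95-fold lower. Of 12 neutrophil markers with a probe, 6 were at least 4-fold higher on the granulocyte array. Mpo (7.95-fold) and Elane (12.8-fold), genes of immature granulocytes, were instead higher on the monocyte array. Among all genes, 8.54% passed 4-fold in favour of granulocytes and 10.4% in favour of monocytes. Only 5 of the 12 passed without scaling, in the deposited table, or with quantile normalisation, normexp correction or spike-in scaling. All 8 monocyte markers passed without scaling or with quantile normalisation, normexp correction or spike-in scaling. All 12 neutrophil markers were well above background on the monocyte array too, and all 8 monocyte markers on the granulocyte array. The scanner software called 63.8% of probes well above background on the granulocyte array, against 68.1% on the monocyte array.

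Formyl peptide receptors are G protein-coupled receptors of phagocytes. They recognise peptides that begin with formyl-methionine, which bacteria and mitochondria make, and through Gi proteins they set off chemotaxis, degranulation and the oxidative burst. In the mouse, Fpr1 is the high-affinity receptor for the short bacterial peptides, and Fpr2 also binds host proteins such as annexin A1, serum amyloid A and the cathelicidin CRAMP. The mouse holds further family members in the same cluster, several of which are known from neurons of the vomeronasal organ.

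The probe sequences are shown because each signal below stands for whatever RNA binds these 60 bases. The capitals mark the longest run that a probe shared with any other formyl peptide receptor probe on the array. The first belongs to Fpr1 and the next to Fpr2. The other Fpr2 probe, A_52_P109378, lists transcripts of 2 genes and its sequence is not shown.
Fpr1, A_51_P312485: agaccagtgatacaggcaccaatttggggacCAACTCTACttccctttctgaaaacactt
Fpr2, A_51_P288138: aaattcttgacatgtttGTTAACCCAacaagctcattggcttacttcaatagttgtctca
In the build mm8 the Fpr1 probe lies at chr17:17581263-17581322 on the minus strand. The Fpr2 probes lie on the plus strand at chr17:17598194-17598253 and chr17:17597583-17597642. No exon or UTR annotation of mm8 was used here. No run longer than 9 bases was shared between the receptor probes. Such runs compare probes only, and binding of a probe to another family member's RNA was not tested. The longest run shared with any probe outside the family was 18 bases for the Fpr1 probe, 14 bases for the Fpr2 probe and 13 bases for the other Fpr2 probe.

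Fpr1 gave a processed signal of 47406 on the granulocyte array, against 293.0 on the monocyte array. A processed signal is the brightness of the spot after the scanner software subtracted the background and removed spatial trends. The software's error was 10.0% of the signal for this spot on each array. The mean pixel brightness of the spot was 1928 times the local background on the granulocyte array and 22.5 times on the monocyte array, and 0 pixels were saturated, so both values are measured and neither is a bound. Scaled to each array's 75th percentile, the level was 7.13 ± 0.14 in granulocytes and -1.08 ± 0.14 in monocytes on the log2 scale (software error, n = 1 each).

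Fpr2 gave a processed signal of 44247 on the granulocyte array, against 1172 on the monocyte array by the probe that lists this gene alone. The scaled levels were 7.03 ± 0.14 in granulocytes and 0.92 ± 0.14 in monocytes (log2, software error, n = 1 each). The other Fpr2 probe, which lists 2 genes, gave 7755 on the granulocyte array, against 246.0 on the monocyte array, or 4.51 ± 0.14 in granulocytes and -1.34 ± 0.14 in monocytes on the same scale. On all 3 probes the granulocyte array was the brighter one by far more than the software's error. Levels of different probes are not set against each other, since probes differ in how well they bind.

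**Figure D1:**
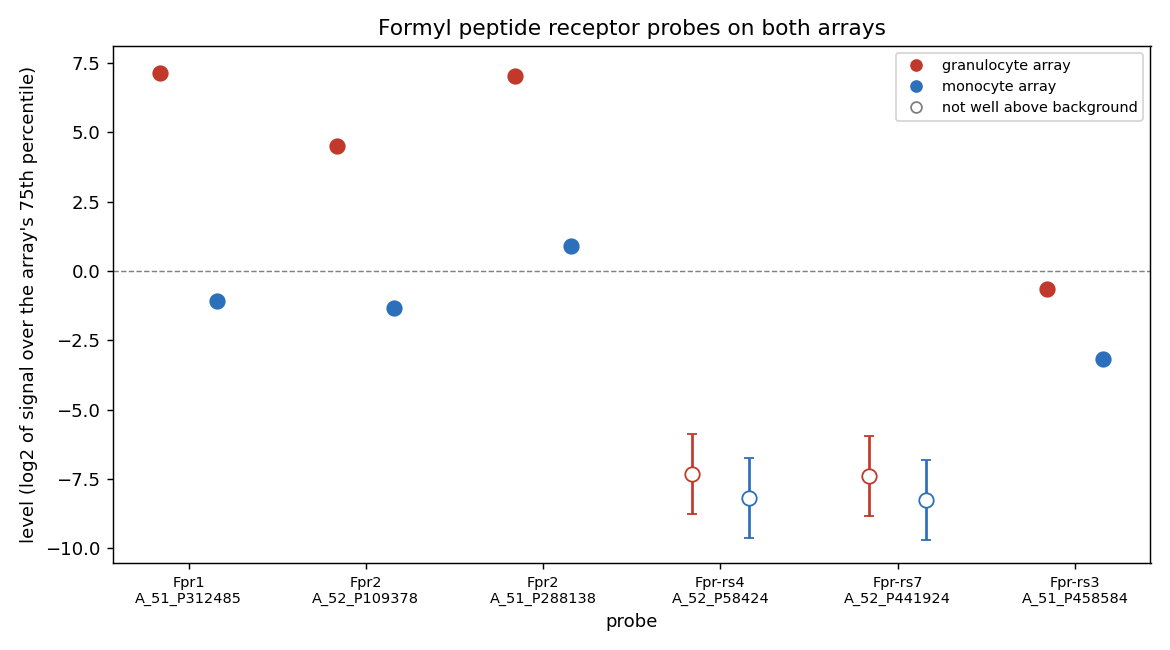
Level of each formyl peptide receptor probe (log2 of the signal over the array's 75th percentile) on the granulocyte and the monocyte array, 1 point per array, with the scanner software's error as bars (smaller than the points for bright probes). The Fpr1 probe sits at 7.13 on the granulocyte and -1.08 on the monocyte array, and open points were not well above background.

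The difference, granulocyte minus monocyte, was 8.21 ± 0.20 for Fpr1 on the log2 scale, a ratio of 296.0-fold. It was 6.11 ± 0.20 for Fpr2, a ratio of 69.1-fold, and 5.85 ± 0.20 by the other Fpr2 probe, a ratio of 57.7-fold. These errors are the software's spot errors and leave out the spread between mice, sorts and labellings. In bulk RNA, fewer cells of a type and less RNA per cell cannot be told apart. The signal of that other probe cannot be assigned to 1 of the 2 genes it lists. The probes named Fpr2 differed by 0.26, and among 3700 genes with 2 probes measured on both arrays 53.1% had probes farther apart.

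Both genes passed the 4-fold size used for counting, with granulocytes the higher. Of all 15609 genes well above background on either array, 8.54% passed it in favour of granulocytes and 10.4% in favour of monocytes. Among 14182 genes measured on both arrays, Fpr1 had the difference with rank 11 from the granulocyte end and Fpr2 that with rank 40. After normexp correction the ranks were 5 and 20. The median difference of these 15609 genes, taken without bounds that gave no direction, was 0.45, so that Fpr1 stood 7.76 and Fpr2 5.66 above it.

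**Figure D2:**
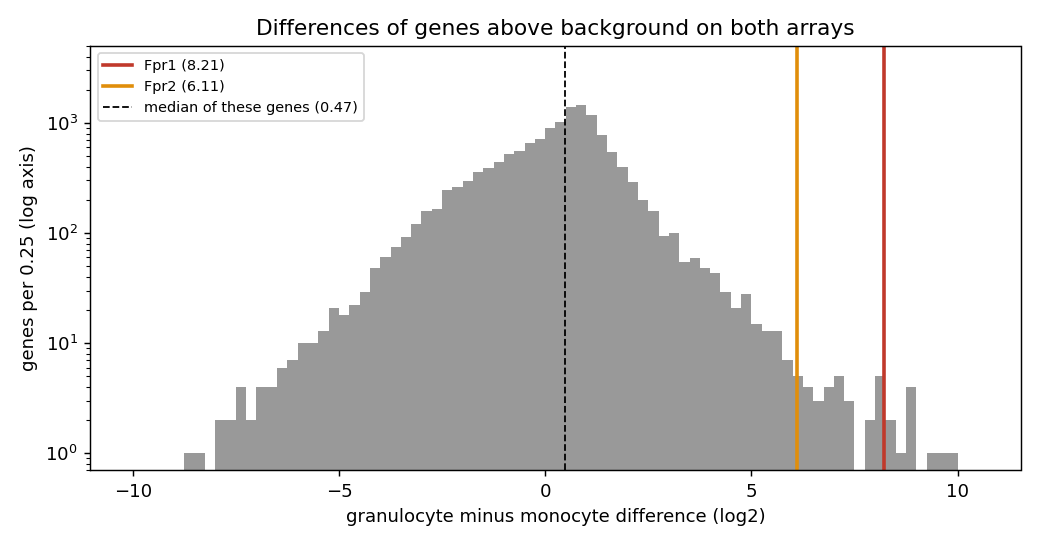
Granulocyte minus monocyte difference (log2, x axis) of the 14182 genes measured on both arrays (y axis, number of genes per bin on a logarithmic scale), with lines at Fpr1, Fpr2 and the median of these genes. Fpr1 at 8.21 and Fpr2 at 6.11 lie in the thin tail of genes brighter on the granulocyte array.

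The difference of Fpr1 was larger than that of Fpr2 by 2.10 ± 0.29 on the log2 scale (software error), a 4.28-fold larger ratio, and by 2.36 when the other Fpr2 probe is taken. Each difference compares a probe with itself, and what part the choice of probe has in the gap was not tested. Scalings that add a constant leave this gap as it is, and it was 2.14 with quantile normalisation and 1.88 after normexp background correction, which compresses the lower signals. Whether it would hold between mice was not tested.

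Fpr-rs3, Fpr-rs4 and Fpr-rs7 were reached by 1 probe each, which carries a transcript identifier in place of a gene name and was assigned by the array's description. They fall outside the name rule and were added after the data were seen. Their sequences are printed with the run shared with another family probe again in capitals. These runs compare probes only, not a probe with the RNA of another gene.
Fpr-rs3, A_51_P458584: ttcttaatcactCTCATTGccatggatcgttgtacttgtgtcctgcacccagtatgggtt
Fpr-rs4, A_52_P58424: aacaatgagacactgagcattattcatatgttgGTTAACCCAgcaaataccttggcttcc
Fpr-rs7, A_52_P441924: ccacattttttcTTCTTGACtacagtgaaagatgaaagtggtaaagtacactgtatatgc
Fpr-rs3 gave a processed signal of 214.4 on the granulocyte array, against 68.8 on the monocyte array, well above background on both. Its difference was 2.51 ± 0.21 on the log2 scale, a ratio of 5.70-fold, but 1.64 without scaling and 1.59 after normexp correction, both under 4-fold, and with spike-in scaling it fell just short of 4-fold. Fpr-rs4 gave 2.11 on the granulocyte array, against 2.11 on the monocyte array. Fpr-rs7 gave 2.01 on the granulocyte array, against 2.03 on the monocyte array. Neither Fpr-rs4 nor Fpr-rs7 was well above background on either array, so no ratio is given for them. The Fpr-rs3 probe shared runs of at most 7 bases with the other family probes. How far it binds Fpr1 or Fpr2 RNA was not tested, and its signal went the same way as theirs.

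Vomeronasal receptor genes, the class of genes next to which the cluster lies and whose sensory neurons express several Fpr relatives, gave a level for genes with no known use in these cells. Of 129 with a probe, 50 were well above background on either array. By the 4-fold rule 2 of these were higher in granulocytes and 0 in monocytes, against 8.54% and 10.4% of all genes. The median difference, taken without bounds that gave no direction, was 0.97 against 0.45 for all genes. Without scaling this median was 0.03 and the median of all genes was -0.42, and after normexp correction they were 0.21 and 0.08.

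Around the Fpr1 probe, 20 probes had a position in the build mm8 within 500 kb, its own and those of Fpr2 included. The Fpr2 probes lay 16.3 and 16.9 kb away. Has1, a hyaluronan synthase gene 33.2 kb away, was well above background by 1 of its 2 probes on the granulocyte array and by neither on the monocyte array, and was at least 3.51-fold higher in granulocytes. The neighbouring Spaca6, known for its role in the fusion of sperm and egg, was not well above background on either array by either of its probes. An unnamed probe 34.9 kb from Fpr1 on the side of Fpr2 was higher in monocytes, with a difference of -1.32. Farther out, the aminopeptidase gene Lnpep had differences of 1.07, 1.29 and 1.51 by its 3 probes, and Riok2, a kinase gene of ribosome assembly, had 0.22. Lix1 was measured by 1 of its 2 probes, at -0.87. Apart from Fpr1 and Fpr2, the largest difference measured on both arrays in this window was 2.03, by an unnamed probe 335.8 kb away.

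**Figure D3:**
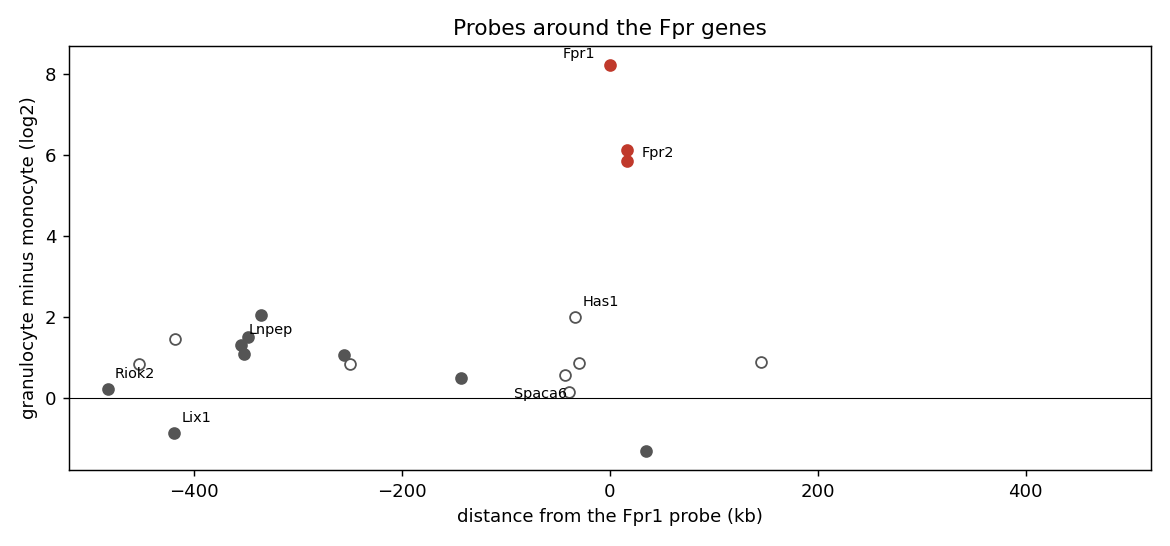
Granulocyte minus monocyte difference (log2, y axis) of each probe against its distance from the Fpr1 probe (kb, x axis) within 500 kb. Filled points were well above background on both arrays and open ones were not, so that open points are no measured difference. The Fpr1 and Fpr2 probes, in red, stand at 5.85 to 8.21 and the other filled points between -1.32 and 2.03.

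Since Fpr1 and Fpr2 lie side by side and were both far higher in granulocytes, the 250 bases before each gene's start are shown, from RefSeq in the build GRCm38.p6, written along each gene's strand. The capitals mark matches to the motifs searched. These were GAGGAA (the core bound by the myeloid factor PU.1), TTGCNNAA (C/EBP), TGTGGT (RUNX), TGANTCA (AP-1) and TATAAA, on both strands.
Fpr1, chr17:17883940-17884189, minus strand: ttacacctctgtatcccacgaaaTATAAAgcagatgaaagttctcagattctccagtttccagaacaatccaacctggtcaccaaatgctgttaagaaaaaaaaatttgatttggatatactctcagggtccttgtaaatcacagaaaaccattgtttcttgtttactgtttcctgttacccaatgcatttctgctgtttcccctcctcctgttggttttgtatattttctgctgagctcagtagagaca
Fpr2, chr17:17887574-17887823, plus strand: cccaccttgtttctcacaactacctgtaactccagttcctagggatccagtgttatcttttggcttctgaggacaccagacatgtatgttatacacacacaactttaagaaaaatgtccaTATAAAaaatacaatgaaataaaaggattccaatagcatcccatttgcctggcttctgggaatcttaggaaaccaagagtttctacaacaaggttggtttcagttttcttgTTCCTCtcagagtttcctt
GAGGAA, read on the other strand, matched the Fpr2 window at bases -19 to -14 before the start and had 0 matches in the Fpr1 window. Of 32851 such windows in the table, 23.3% hold it. TATAAA matched at -227 to -222 in the Fpr1 window and at -130 to -125 in the Fpr2 window, and 12.4% of windows hold it. The motifs of C/EBP, RUNX and AP-1 had 0 matches in either window, against 9.6%, 14.0% and 6.7% of all windows. These are matches of letters, and nothing here measures binding.

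Genes of reported agonists went both ways. All 11 ligand or precursor genes were measured on either array or both, with a median of 0.95 against 0.45 for all genes. In favour of granulocytes 3 passed 4-fold and in favour of monocytes 1, against 8.54% and 10.4% of all genes. The granulocyte count was 0 without scaling, after normexp correction or with spike-in scaling. The monocyte count was 2 without scaling, in the deposited table, or with quantile normalisation, spike-in scaling or scaling to the median of measured probes. Anxa1, whose product annexin A1 acts on Fpr2, was higher in granulocytes (2.48), as were Plaur, the urokinase receptor whose cleaved form is an agonist (2.32, and 2.40 by its other probe), the prion protein gene Prnp (2.14) and Camp, which encodes the cathelicidin CRAMP (1.52). Ctsg, the gene of cathepsin G, a protease reported as an Fpr1 agonist, was higher in monocytes (-3.40). Saa3, an acute-phase serum amyloid gene, was not well above background in granulocytes, and monocytes were at least 3.91-fold higher by a probe that lists 2 genes. Genes of enzymes that act on the starting methionine or on peptides were split, and of 5 listed 4 had a probe. Metap1d, which encodes the mitochondrial methionine aminopeptidase, was higher in monocytes (-3.51, and -4.36 by its other probe), as was Mtfmt, the mitochondrial enzyme that formylates the initiator methionine (-1.96). Mme, which encodes neprilysin, a peptidase that cleaves formyl peptides, gave 0.79 and the aminopeptidase gene Anpep gave 0.26, and both were negative without scaling (-0.09 and -0.61), Anpep with spike-in scaling too (-0.26) and marginally after normexp correction.

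Other receptors for chemoattractants went both ways. Of 16 well above background on either array, 7 passed 4-fold in favour of granulocytes and 3 in favour of monocytes, against 8.54% and 10.4% of all genes. The median was 1.48, against 0.45 for all genes. Of the 16, 12 were higher in granulocytes, against 9 without scaling or with spike-in scaling, and after normexp correction 3 in place of 7 passed 4-fold. Cxcr2, the receptor for neutrophil-attracting chemokines, had 8.38, close to Fpr1. The receptors for the complement fragment C5a followed, C5ar1 at 5.55 and C5ar2 at 4.17, and Cxcr1 was at least 12.8-fold higher in granulocytes and not well above background in monocytes. The receptor of monocyte chemoattractants Ccr2 (-7.67) and Cx3cr1, which binds fractalkine (-6.54, with -2.12 by another probe), were higher in monocytes, as was Ccrl2 (-1.57). Cxcr2, Ccr2 and Cx3cr1 also stand among the cell type markers.

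Behind the receptors lies a shared signalling chain. All 24 genes of Gi proteins, phospholipase C, phosphoinositide 3-kinase gamma and Rac activation were measured on both arrays, and all 24 were higher in granulocytes with scaling to the 75th percentile. That count was 22 with quantile normalisation, normexp correction or spike-in scaling, and 17 without scaling. With scaling to the 75th percentile most genes measured on both arrays were higher in granulocytes, with a median of 0.47. So were 42 of the 50 vomeronasal receptor genes, against 27 without scaling. Of the 24, 5 passed 4-fold, against 8.54% of all genes, and the median was 1.41 against 0.45 for all genes. Only 1 of the 24 passed with quantile normalisation, normexp correction or spike-in scaling, and 0 without scaling. The largest differences were those of the protein kinase C gene Prkcb (2.68, and 1.74 by its other probe), the GTPase gene Rac2 (2.41), the Src family kinase gene Fgr (2.29), the Gi subunit gene Gnai3 (2.06) and the phospholipase gene Plcb2 (2.04). Pik3cg, the catalytic subunit of phosphoinositide 3-kinase gamma, gave 1.76.

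Of 10 genes that switch such receptors off, 2 passed 4-fold in favour of granulocytes and 2 in favour of monocytes, against 8.54% and 10.4% of all genes, and the median was 1.17. In favour of granulocytes only 1 passed without scaling, after normexp correction or with spike-in scaling, and in favour of monocytes only 1 by the mean of a gene's probes. The median was 0.30 without scaling. Arrb2, a beta-arrestin gene, gave 3.35, and the G protein regulators Rgs18 and Rgs19 gave 2.45 and 1.82. Rgs1 was higher in monocytes (-3.13), and the receptor kinase gene Grk3 gave -3.60, -1.56 and -0.13 by its 3 probes, while Grk2 gave 1.63. The 5 NADPH oxidase genes, whose products make the superoxide of the burst, were all higher in granulocytes, also without scaling. At least 4-fold higher were 2 of them, among them Ncf1 (2.94). Of all genes 8.54% passed 4-fold that way. The median of the 5 was 1.81, against 0.45 for all genes. Only 1 of the 5 oxidase genes passed without scaling, in the deposited table, or with quantile normalisation, normexp correction or spike-in scaling.

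**Figure D4:**
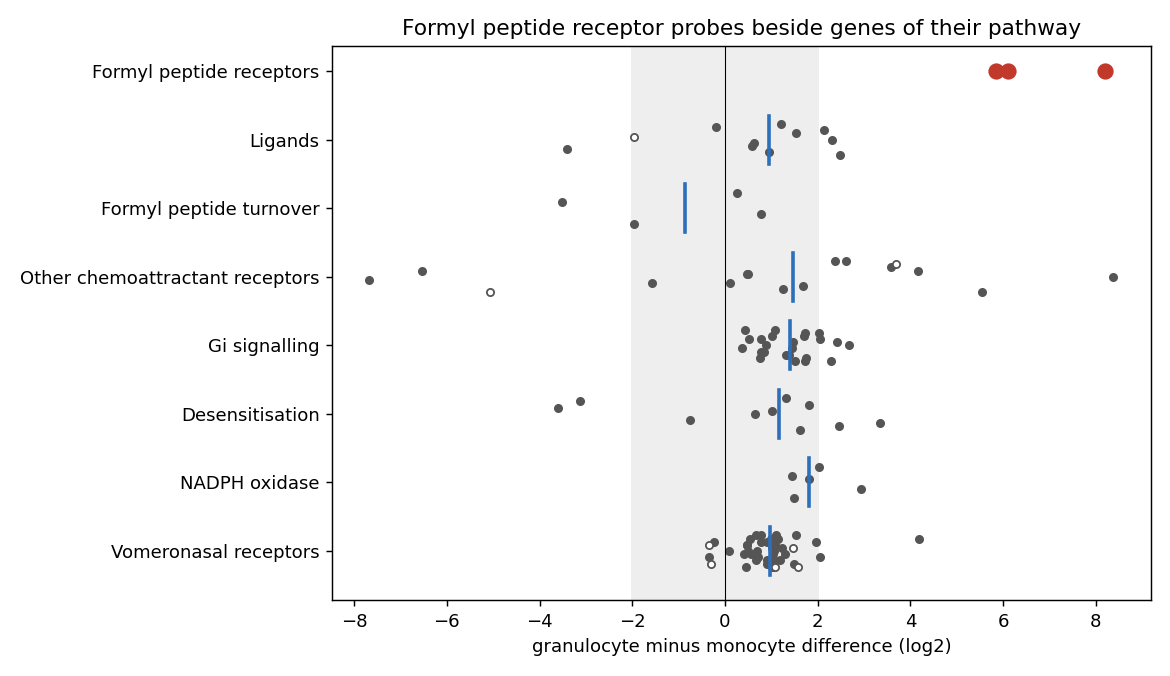
Granulocyte minus monocyte difference (log2, x axis) of the 3 Fpr probes (red) above the genes of each list, 1 point per gene, with the list's median as a blue line, bounds as open points and differences under 4-fold in the grey band. The Fpr probes lie at 5.85 to 8.21, and the 24 genes of Gi signalling lie between 0.36 and 2.68.

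The genes whose difference was nearest to that of Fpr1, over the 2 arrays, were Nt5e (8.19), Sema4f (8.17), Dmwd (8.17), Ceacam10 (8.11) and Dhrs9 (8.32). Nearest to Fpr2 were Crispld2 (6.04), Ggt5 (6.18), Myo1d (6.19), Hc (6.22) and Clec4d (6.00). With 2 arrays this likeness is that of 1 number per gene.

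The neutrophil markers with the largest differences gave 9.65 for the gelatinase gene Mmp9, 8.38 for Cxcr2, 7.10 for Retnlg and 5.49 for the collagenase gene Mmp8. The summed level of the 12 neutrophil markers, in units of each array's 75th percentile, was 4153 on the granulocyte array, against 1312 on the monocyte array, and that of the 8 monocyte markers was 15.0 on the granulocyte array, against 525.8 on the monocyte array. Most of the neutrophil marker sum on the monocyte array came from S100a9, Mpo and S100a8. Of these, Mpo was higher on the monocyte array, and S100a9 and S100a8 were 2.09-fold and 3.23-fold higher on the granulocyte array. Mmp9 and Cxcr2 were the lowest of the 12 on the monocyte array, at log2 levels of -1.45 and -2.81. What part of the Fpr signal on the monocyte array came from granulocytes was not tested.

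Markers of other marrow cells differed as well. Of 6 basophil and mast cell markers 2 were at least 4-fold higher on the granulocyte array, Hdc (5.03) and Cpa3 (2.35), against 8.54% of all genes. Only 1 of the 6 passed without scaling, after normexp correction or with spike-in scaling. The summed level of the 6 was 331.4 on the granulocyte array, against 11.1 on the monocyte array, nearly all of it Hdc. Of 6 eosinophil markers 5 were well above background on either array, and 0 of these reached 4-fold. The summed level of the 6 was 22.0 on the granulocyte array, against 9.72 on the monocyte array. Macrophage markers summed to 9.73 on the granulocyte array, against 28.3 on the monocyte array, where Adgre1 made up most of the sum. Every one of the 7 macrophage markers was well above background on both arrays. C1qa, C1qb, C1qc and Marco, 4 of the 7, were higher on the granulocyte array, 0 of them by 4-fold. The other 3, Mrc1 (-2.79), Adgre1 (-1.84) and Vcam1 (-1.52), were higher on the monocyte array. Only Mrc1 passed 4-fold, against 10.4% of all genes. Without scaling or with spike-in scaling 3 markers passed 4-fold in favour of monocytes. The median difference was 0.80, and -0.07 without scaling. Erythroid markers summed to 338.3 on the granulocyte array and to 95.1 on the monocyte array. Dendritic cell markers summed to 5.30 on the granulocyte array and to 23.7 on the monocyte array. Of these 6, 3 were at least 4-fold higher on the monocyte array and 1 on the granulocyte array, against 10.4% and 8.54% of all genes. Without scaling 4 passed in favour of monocytes. Itgax (2.93, and 1.30 by its other probe) and Xcr1 (1.20) were the dendritic cell markers higher on the granulocyte array. Of 3 measured T and NK cell markers 2 were at least 4-fold higher on the monocyte array, against 10.4% of all genes. These were Cd3g (-3.44) and Klrb1c (-2.69), while Cd3e gave 0.44, and the median was -2.69. After normexp correction only 1 passed. The 3 megakaryocyte markers were all higher on the granulocyte array. Gp9 was higher by 5.73-fold and the others by less than 4-fold, against 8.54% of all genes at least 4-fold higher there. Of the 3 B-cell markers, with a median of 1.02, 0 reached 4-fold. The part of these cells in the Fpr values was not tested.

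**Figure D5:**
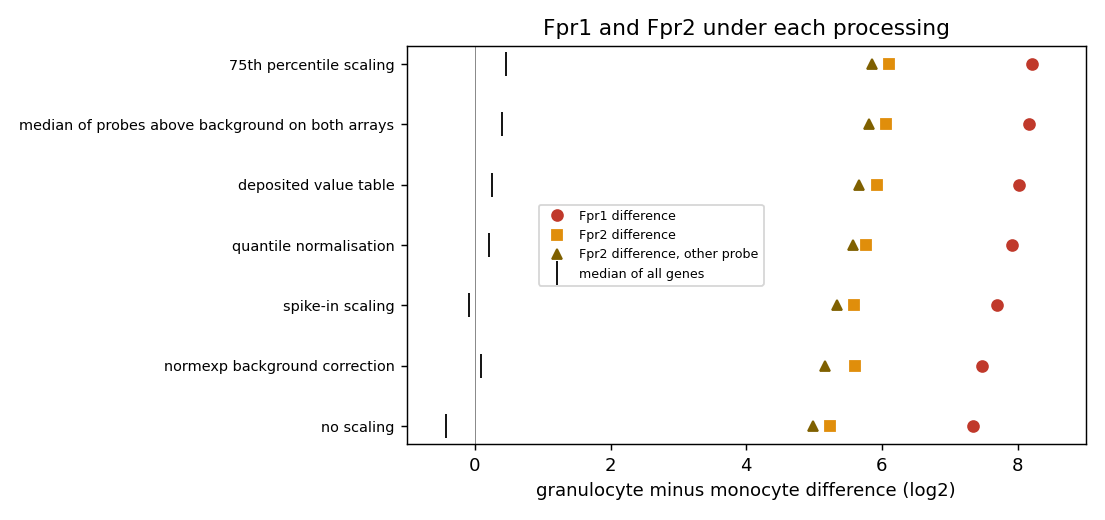
Granulocyte minus monocyte difference (log2, x axis) of Fpr1, Fpr2 and the other Fpr2 probe under each processing (rows), with the median of all genes as black ticks. Fpr1 ranges from 7.34 without scaling to 8.21, Fpr2 from 5.24 to 6.11, and the medians of all genes shift the same way.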

How the data were processed

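Agilent Feature Extraction 10.5.1.1 read the scans, per the file headers, and the deposited intensity of a spot is background-subtracted, spatially detrended, linear and not normalised between arrays. The authors' deposited value table is on a log2 scale and differs from the log2 processed signals by a shift of -0.24 for the granulocyte array and -0.92 for the monocyte array, within 0.01 for 99.8% and 99.9% of probes. Its column medians were 4.80 and 4.80, and the rule behind its centring is unknown. Direction did not need settling, since each array has 1 colour.

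No control spot was used, nor any outlier spot (143 on the granulocyte and 103 on the monocyte array), and 0 spots were saturated. Log2 signals were taken relative to each array's 75th percentile (339.4 for granulocytes, 620.9 for monocytes). Probes were named through RefSeq accessions of GRCm38.p6 (24496), current symbols (6234) or single older symbols (2386), and 8058 stayed unnamed. The probe above background on most arrays, then the brightest, stood for a gene. Where 1 array was not well above background, a lower bound ("at least") was taken against the probe's own dim value or, if higher, the lowest signal that was well above background on that array.

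Alternatives were other scalings, quantile normalisation, normexp (limma 3.58.1, offset 50), the deposited table, filters, probe rules and sizes. The calculation was tested on simulated data. The members, lists and tests were chosen with earlier results of these data known. Genes were named by these rules: all Fpr probes, up to 6 members per list by size, members at least 2-fold against their list's median, the 5 genes nearest to Fpr1 and to Fpr2, neighbours and markers. A few genes of the lists are not reported here, though counts and medians include them.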

Additional observations from a re-analysis of the deposited data

How the results depend on the processing

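No paired analysis was possible because each cell type has 1 array. Spike-in scaling (9 controls), the mean of both Fpr2 probes and the probes of Fpr-rs3, Fpr-rs4 and Fpr-rs7 were chosen after seeing the data. The Fpr1 difference was 7.34 without scaling, 7.91 with quantile normalisation, 7.69 with spike-in scaling and 7.47 after normexp correction, and that of Fpr2 became 5.24, 5.77, 5.60 and 5.60 in the same order. Both stayed within the software's error with scaling to the median of measured probes (8.16 and 6.06) and in the deposited table (8.03 and 5.93), and the mean of both Fpr2 probes gave 5.98. The scalings run here that add a constant shifted them by at most 0.87. The Fpr-rs3 difference ranged down to 1.64 without scaling and 1.59 after normexp correction, below 4-fold, and was just below it with spike-in scaling. Genes at least 4-fold higher in granulocytes numbered 1333 and fell to 581 without scaling, 786 with spike-in scaling and 662 after normexp correction. Those higher in monocytes numbered 1622 and became 3011 without scaling. At 2-fold the counts were 4536 in granulocytes and 3256 in monocytes, and at 8-fold 522 and 666, by construction. Granulocytes therefore held fewer of the calls without scaling. Of 56 list medians recomputed relative to the median of all genes, 49 moved by less than the median SD between probes of a gene (0.23), 7 moved by more and 0 changed sign. None of these settings measures the spread between mice.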
